A study of Homo sapiens with 6 samples.

Results

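The expression of 10 genes was followed in MDA-MB-231, a cell line established from a human mammary carcinoma and mesenchymal in appearance. They encode 5 serine proteases held at the cell surface (TMPRSS2, TMPRSS3, TMPRSS4, ST14 and PRSS8), the 2 Kunitz-type inhibitors of such proteases (SPINT1 and SPINT2) and 3 small secreted proteins with whey acidic protein (WAP) domains (SLPI, PI3 and WFDC10B). Members are all probe sets that the platform annotation gives to exactly 1 of these symbols, which makes 19 of the 54613 probe sets tested and 10 of 19775 genes. The genes were picked by name with earlier results of this comparison known, and TMPRSS3 and WFDC10B are among its largest increases. The members' own values are therefore a description, and no p-value is given for them.

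The arrays were 3 from cells transfected with a plasmid that expresses HS3ST2, a heparan sulfate 3-O-sulfotransferase, and 3 from cells given a control vector. All 6 share the same line and culture conditions. The sources used here do not give the plasmid's promoter, the time after transfection or whether the cells were pools or clones. They also do not say whether replicates were separate transfections, so only the spread between these arrays is known. The error of each difference is a moderated standard error from limma, and the intervals are built on it. Moderation draws the variance of each gene or probe set toward that of all those tested. An error can therefore be larger or smaller than the spread of its own arrays would give. Values are log2 and have been centred so that the median of the 6 arrays is 0 for every probe set. A value of 0 is therefore the middle of the 6 arrays and not an absent transcript, levels of different genes cannot be compared, and neither the cell line's markers nor the presence of any member can be checked from levels. In bulk RNA, a change in the number of expressing cells and a change of RNA per cell cannot be told apart.

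Type II transmembrane serine proteases carry a trypsin-like domain outside the cell on a membrane anchor, are made as inactive zymogens and are activated by cleavage. ST14 (matriptase) activates PRSS8 (prostasin), which is held by a lipid anchor, and both act in epithelial barriers. SPINT1 and SPINT2, also membrane proteins, block them through Kunitz domains, while SLPI and PI3 (elafin) are WAP proteins of mucosal fluids that inhibit neutrophil elastase. Expression of ST14 and its inhibitors is typical of epithelia rather than of mesenchymal cells.

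Most of the genes stood apart between the groups, in both directions. TMPRSS3 and WFDC10B were higher in the HS3ST2-labelled arrays by about the same amount (2.64 and 2.54 log2), SLPI (-1.07), PI3 (-0.78) and ST14 (-0.44) were lower, SPINT2 was slightly higher (0.28), and TMPRSS2, TMPRSS4, PRSS8 and SPINT1 lay within 0.11 of 0. In the limma fit over all genes at a Benjamini-Hochberg adjusted p under 0.05, 3 of the 10 were called higher and 3 lower. Of all 19775 genes 24.5% were called, 11.5% higher and 13% lower. Among the 19 probe sets, 4 were called higher and 5 lower, where 16.9% of all probe sets were called (7.9% higher and 8.98% lower). Groups were free of overlap in 7 of the 10 genes, against 40.4% of all genes, and in 10 of the 19 probe sets, against 34.1% of all probe sets. The median difference was 0.01 log2 over the members and 0.01 over all genes.

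**Figure D1:**
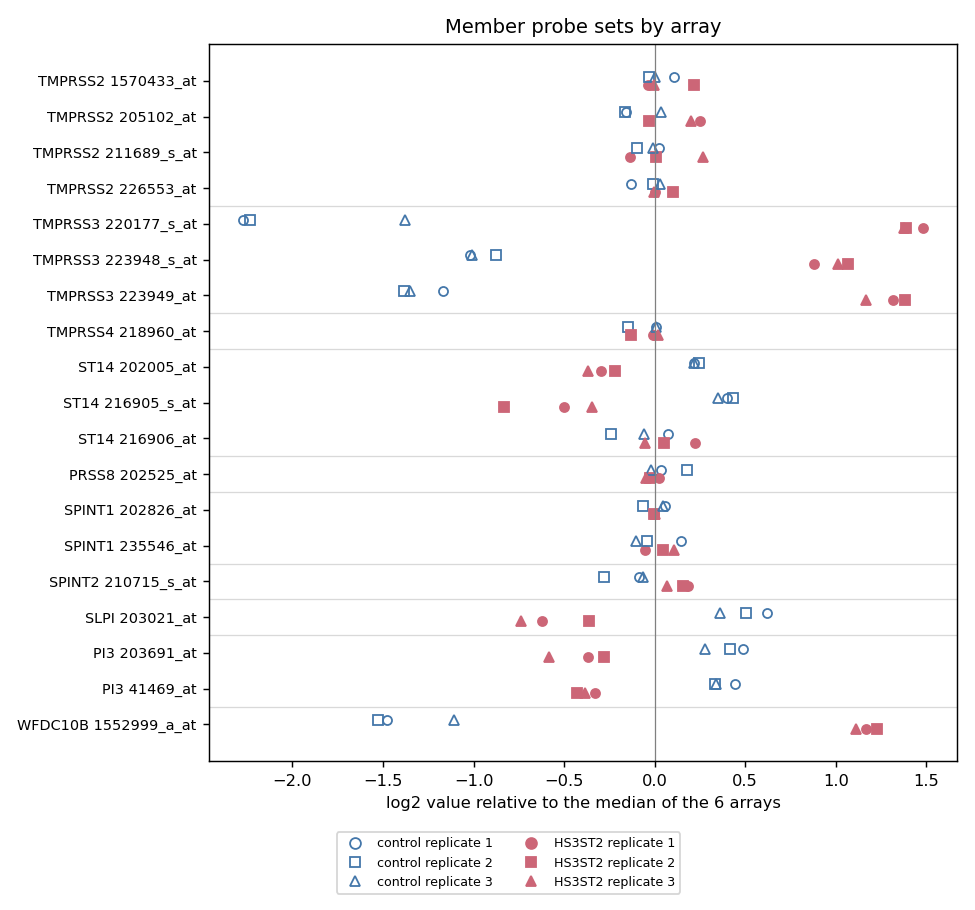
Values of the 19 member probe sets in each of the 6 arrays, as log2 relative to the probe set's median; open blue symbols are control arrays, filled red symbols HS3ST2-labelled arrays, and the symbol shape gives the replicate. The 3 TMPRSS3 rows and the WFDC10B row are split widely, SLPI and PI3 run the other way, and TMPRSS2, TMPRSS4, PRSS8 and SPINT1 are mixed.

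The single probe set for HS3ST2 did not separate the groups and so does not check the labels. It stood at -0.22, 0.17 and -0.11 in control arrays and at 0.16, 0.04 and -0.04 in HS3ST2-labelled arrays, and the sources used here do not say whether it matches the plasmid's transcript. All directions rest on the labels. The median of 6 ribosomal RNA control probe sets was -0.20, -0.06 and -0.29 in control arrays and 0.02, 0.16 and 0.74 in HS3ST2-labelled arrays, and its part in the results was not tested. The middle control probe sets of GAPDH and ACTB also separated the groups, the other way, from 0.13 to 0.15 and from 0.05 to 0.21 in control arrays and from -0.19 to -0.13 and from -0.14 to -0.05 in HS3ST2-labelled arrays. The ribosomal RNA median was highest in HS3ST2 replicate 3. Without that array TMPRSS3 differed by 2.66, WFDC10B by 2.57, SLPI by -0.99, PI3 by -0.73, ST14 by -0.44 and SPINT2 by 0.31. Of 19 measured epithelial markers 7 were called higher and 2 lower (47.4% called, against 24.5% of all genes). Their array means were from -0.06 to 0.00 in control and from 0.00 to 0.06 in HS3ST2-labelled arrays. These means average over opposite changes, from -1.34 for EHF to 0.63 for ESRP1. Of 10 mesenchymal markers 2 were higher and 1 was lower (30% called). The mesenchymal array means also split the groups, from -0.062 to -0.035 in control and from 0.006 to 0.022 in HS3ST2-labelled arrays. None of 8 leukocyte or 8 fibroblast markers was called, and their array means overlapped between the groups. The part of these markers in the results was not tested.

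TMPRSS3, a transmembrane protease known from inherited deafness and from cleavage of the epithelial sodium channel, had the largest difference of the 10 genes. Averaged over its 3 probe sets it stood at -1.49, -1.50 and -1.25 in control arrays and at 1.23, 1.28 and 1.19 in HS3ST2-labelled arrays. The lowest HS3ST2-labelled array thus lay more than 2 log2 above the highest control. The groups differed by 2.64 ± 0.08 log2 (SE, 3 arrays each, 95% interval 2.46 to 2.82), or 6.24-fold on this scale, rank 11 by size among 19775 genes in either direction.

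The TMPRSS3 probe sets gave the same direction and different sizes. Probe set 220177_s_at stood at -2.27, -2.23 and -1.38 in control arrays and at 1.48, 1.39 and 1.38 in HS3ST2-labelled arrays, a difference of 3.38 ± 0.22. Its control replicate 3 lay well above the other two controls. Probe set 223949_at stood at -1.17, -1.39 and -1.35 against 1.32, 1.38 and 1.17, a difference of 2.59 ± 0.09. Probe set 223948_s_at stood at -1.02, -0.88 and -1.01 against 0.88, 1.07 and 1.01, a difference of 1.95 ± 0.08. In neither of these last probe sets was control replicate 3 set apart. Affymetrix gives the ending _s_at to probe sets that can match more than 1 transcript. The probe set without that ending gave nearly the same difference as the gene's mean.

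TMPRSS3 lay at the end of a stretch of adjacent genes that rose together. In the order of the RefSeq gene table its 3 measured neighbours on one side are the trefoil factor genes TFF1, TFF2 and TFF3, which encode small secreted proteins of mucus. They rose by 3.04 ± 0.09, 3.92 ± 0.11 and 2.54 ± 0.05 log2 (limma adjusted p = 2.05e-06, 2.05e-06 and 3.08e-07). TFF1 stood at -1.67, -1.77 and -1.40 in control arrays and at 1.40, 1.43 and 1.46 in HS3ST2-labelled arrays. TFF3, the farthest of them, stood at -1.29, -1.25 and -1.25 against 1.27, 1.31 and 1.25. As for TMPRSS3, no array of one group came near the other group.

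Both edges of this stretch were abrupt. On the far side of TFF3, ABCG1, a cholesterol exporter, differed by -0.16 ± 0.05 and did not pass (adjusted p = 0.0565), and UMODL1-AS1 by 0.15 ± 0.11 (adjusted p = 0.356). On the other side of TMPRSS3, UBASH3A, a regulator of T cell receptor signalling, differed by -0.11 ± 0.07 (adjusted p = 0.321) and the cilia gene RSPH1 by 0.03 ± 0.10 (adjusted p = 0.866). Farther out, SLC37A1, a sugar phosphate transporter, rose by 0.32 ± 0.08 (adjusted p = 0.0206) and the phosphodiesterase gene PDE9A by 0.61 ± 0.13 (adjusted p = 0.00998). The 2 probe sets of each of these disagreed, with 0.52 and 0.11 for SLC37A1 and 1.15 and 0.07 for PDE9A. Of the 10 neighbours of TMPRSS3, 5 were called higher and none lower. The call of SLC37A1 was lost under 5 of 14 alternatives, namely without control replicate 2 (0.28) or 3 (0.33), without HS3ST2 replicate 1 (0.31) or 3 (0.26), and from only the probe sets that do not end in _x_at or _s_at (0.11).

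Over all 19738 genes that could be placed in order, 98 differed upwards and 93 downwards by 1 log2 or more, and 6 runs of 2 or more neighbours past that size in the same direction were found. The run of TFF3, TFF2, TFF1 and TMPRSS3 held 4 genes and each of the other 5 held 2. These runs were counted after the TMPRSS3 values had been seen, and no test was made of them. TMPRSS2, the androgen-regulated protease that primes several viral surface proteins, is also on chromosome 21 and was not part of the run.

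**Figure D2:**
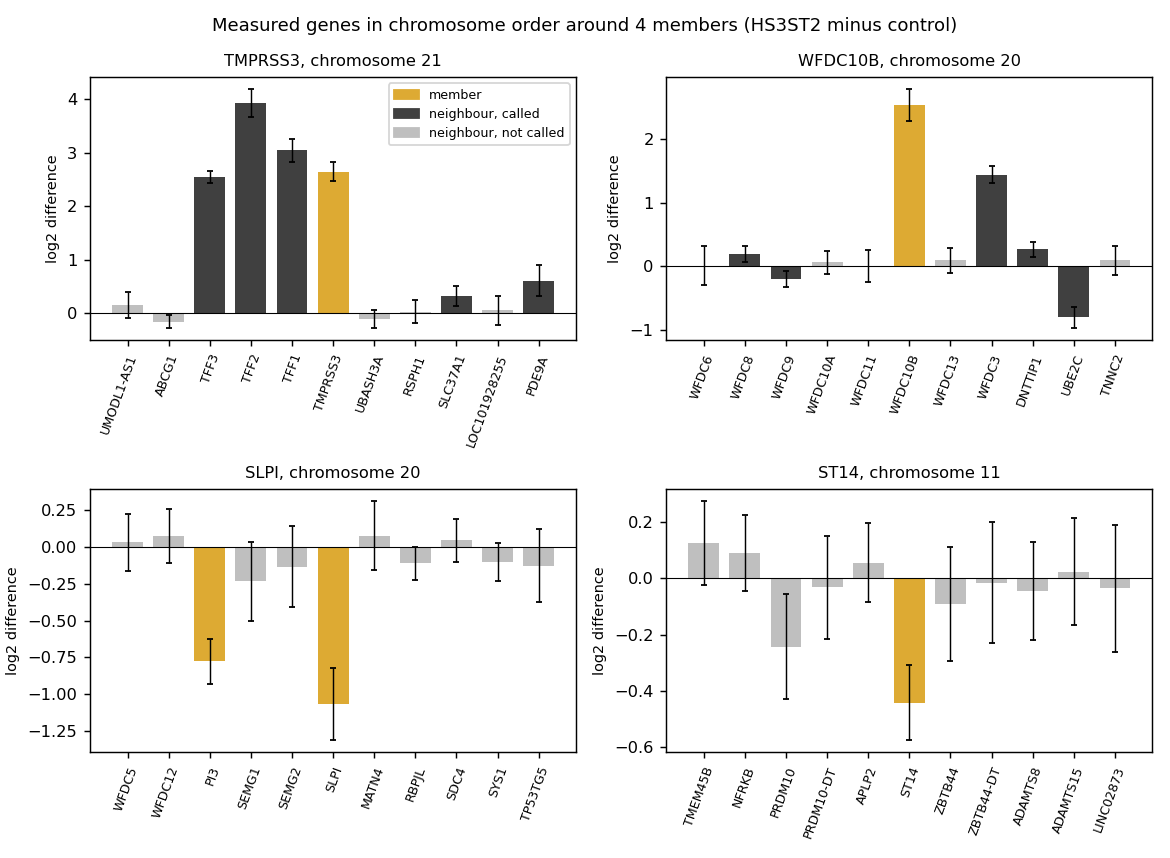
Log2 difference (HS3ST2 minus control) of the measured genes on each side of TMPRSS3, WFDC10B, SLPI and ST14 in chromosome order; yellow bars are members, dark bars called neighbours, pale bars neighbours that were not called, error bars are 95% intervals, and the vertical scale differs between panels. TFF3, TFF2 and TFF1 stand with TMPRSS3, WFDC3 rises 2 places from WFDC10B, and the neighbours of SLPI and ST14 that are not members are pale.

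WFDC10B, a WAP-domain gene whose function is little known, had the second largest difference. Its 1 probe set, 1552999_a_at, stood at -1.48, -1.53 and -1.11 in control arrays and at 1.17, 1.23 and 1.11 in HS3ST2-labelled arrays. As in the first TMPRSS3 probe set, control replicate 3 was the least low of the controls, and the groups were far apart. The groups differed by 2.54 ± 0.11 log2 (SE, 3 arrays each, 95% interval 2.29 to 2.79), or 5.82-fold on this scale, next in size after TMPRSS3 among all genes. The intervals of WFDC10B and TMPRSS3 overlap.

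WFDC10B sits on chromosome 20 among other WAP genes, and its change was not shared by the genes on either side. WFDC11 (0.00 ± 0.11, adjusted p = 0.983) and WFDC13 (0.09 ± 0.08, adjusted p = 0.486), the latter overlapping WFDC10B in the gene table, did not pass. WFDC13 stood at -0.06, 0.11 and -0.15 in control arrays and at 0.02, 0.18 and -0.02 in HS3ST2-labelled arrays, which overlap. WFDC10A, the closest relative by name, did not pass either (0.06 ± 0.08, adjusted p = 0.634). Past WFDC13, WFDC3 rose by 1.44 ± 0.06 (adjusted p = 6.98e-06). It stood at -0.75, -0.66 and -0.70 in control arrays and at 0.78, 0.66 and 0.77 in HS3ST2-labelled arrays. The next gene, DNTTIP1, a subunit of a histone deacetylase complex, rose by 0.26 ± 0.05 (adjusted p = 0.00721), and UBE2C beyond it, a ubiquitin-conjugating enzyme of mitosis, fell by 0.81 ± 0.07 (adjusted p = 1.86e-04). Of the 10 neighbours 3 were called higher and 2 lower. WFDC9 fell by 0.20 ± 0.06 (adjusted p = 0.0298), a call lost under 5 of 14 alternatives, namely with a replicate block, without control replicate 1 (-0.19) or 2 (-0.19) and without HS3ST2 replicate 1 (-0.19) or 3 (-0.19). Its 2 probe sets gave -0.06 and -0.35.

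The start regions of these risen genes are shown because the genes beside them did not all change and their promoters differ in CpG content. RefSeq windows were at hand for 3 of the 10 members (SPINT1, TMPRSS3 and WFDC10B), and the 250 bases before the start are printed for the 2 that carry the largest differences, 5′ to 3′ on the gene's strand (minus for both) in build GRCh38.p14, with CpG dinucleotides in capitals. The TMPRSS3 window is chr21:42389150-42389399 and the WFDC10B window chr20:45705020-45705269. The third line holds the 70 bases between the divergent starts of WFDC3 and DNTTIP1, at chr20:45791884-45791953, written on the strand of WFDC3 (minus).
TMPRSS3: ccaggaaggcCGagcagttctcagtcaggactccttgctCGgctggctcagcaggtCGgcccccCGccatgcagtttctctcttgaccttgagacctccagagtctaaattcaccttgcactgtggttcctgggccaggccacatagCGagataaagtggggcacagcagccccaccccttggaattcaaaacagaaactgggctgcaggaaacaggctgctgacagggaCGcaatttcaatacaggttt
WFDC10B: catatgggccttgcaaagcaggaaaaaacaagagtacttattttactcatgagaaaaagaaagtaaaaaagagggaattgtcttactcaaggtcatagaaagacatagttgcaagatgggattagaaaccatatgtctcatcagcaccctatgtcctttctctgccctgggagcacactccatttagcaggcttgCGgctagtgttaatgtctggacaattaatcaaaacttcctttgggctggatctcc
WFDC3 and DNTTIP1: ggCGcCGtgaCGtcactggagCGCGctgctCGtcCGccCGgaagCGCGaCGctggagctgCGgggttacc

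The TMPRSS3 window holds 6 CpG (more than 38.1% of the 35116 windows in the table) and the WFDC10B window 1 (more than 6.06%), where the median window holds 11. The 250 bases before WFDC3, which rose, hold 31 (more than 89.1%). The 3 risen genes thus differed widely in CpG count. Motifs were searched on both strands in the 250 bases. TATAAA is in 10.7% of all windows, CCAAT in 32%, TGANTCA in 6.57%, CACCTG in 17.5% and CAAGTG in 9.5%, and none of these 5 is in the TMPRSS3, WFDC10B or WFDC3 window. TGACGTCA, added after the WFDC3 sequence was seen and found in 1.65% of windows, occurs once between the starts of WFDC3 and DNTTIP1, 63 bases before the WFDC3 start. No other match of these motifs was found in these windows, so no overlap between motifs could occur there.

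SLPI, the secretory leukocyte protease inhibitor, had the largest decrease of the 10 genes. Its 1 probe set stood at 0.62, 0.51 and 0.36 in control arrays and at -0.62, -0.36 and -0.74 in HS3ST2-labelled arrays. All controls lay above all HS3ST2-labelled arrays. The groups differed by -1.07 ± 0.11 log2 (SE, 3 arrays each, 95% interval -1.32 to -0.82), or 2.10-fold lower.

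PI3, which encodes elafin, an elastase and proteinase 3 inhibitor related to SLPI, differed the same way in both of its probe sets. Probe set 203691_at stood at 0.49, 0.41 and 0.28 in control arrays and at -0.37, -0.28 and -0.58 in HS3ST2-labelled arrays. The 6 arrays fell in the same order as for SLPI. Probe set 41469_at stood at 0.45, 0.33 and 0.34 against -0.33, -0.43 and -0.38, without that order. The differences were -0.80 ± 0.10 and -0.75 ± 0.07, and the gene's was -0.78 ± 0.07 (95% interval -0.93 to -0.63), or 1.71-fold lower.

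PI3 and SLPI are near neighbours on chromosome 20, on the same chromosome as WFDC10B and opposite to it in direction. Between them the table places the semenogelin genes SEMG1 (-0.23 ± 0.12, adjusted p = 0.199) and SEMG2 (-0.14 ± 0.12, adjusted p = 0.476), which did not pass. None of the 9 other genes counted around SLPI and none of the 9 around PI3 was called. These include the WAP genes WFDC5 (0.03 ± 0.08) and WFDC12 (0.08 ± 0.08) and, beyond SLPI, MATN4 (0.08 ± 0.10), RBPJL (-0.11 ± 0.05) and the heparan sulfate proteoglycan gene SDC4 (0.04 ± 0.06). The decrease was thus measured in PI3 and SLPI and was not detected in the genes between or beside them.

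**Figure D3:**
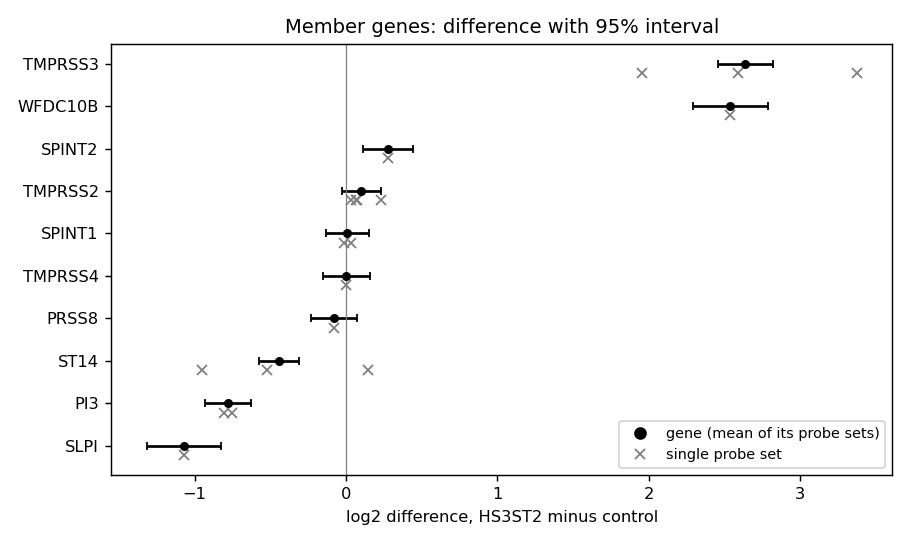
Log2 difference (HS3ST2 minus control) of each of the 10 genes with its 95% interval from limma (black), and of each single probe set (grey crosses), sorted by size. TMPRSS3 and WFDC10B are at 2.64 and 2.54, SLPI is lowest at -1.07, and the crosses of ST14 lie on both sides of 0.

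ST14, the gene of matriptase, was lower, but its probe sets did not agree. Probe set 202005_at stood at 0.22, 0.25 and 0.22 in control arrays and at -0.30, -0.22 and -0.37 in HS3ST2-labelled arrays, a difference of -0.52 ± 0.07. Probe set 216905_s_at stood at 0.40, 0.43 and 0.35 against -0.50, -0.83 and -0.35, a difference of -0.95 ± 0.12. In both the groups were clear of each other. Probe set 216906_at stood at 0.08, -0.24 and -0.06 against 0.22, 0.05 and -0.05, with overlapping groups and a difference of 0.15 ± 0.11. Over the 3 the gene differed by -0.44 ± 0.06 (95% interval -0.58 to -0.31). Without the _s_at probe set the gene was at -0.19 and was not called. None of the 10 neighbours of ST14 was called, among them APLP2 (0.05 ± 0.06), which encodes a Kunitz-domain membrane protein.

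PRSS8, the lipid-anchored partner of ST14, did not separate the groups. It stood at 0.03, 0.18 and -0.02 in control arrays and at 0.02, -0.02 and -0.05 in HS3ST2-labelled arrays, a difference of -0.08 ± 0.07 (95% interval -0.23 to 0.07). TMPRSS4, a protease studied in pancreatic and other carcinomas, stood at 0.01, -0.15 and 0.01 against -0.01, -0.13 and 0.02. Its difference was 0.00 ± 0.07 (interval -0.15 to 0.16). The 4 probe sets of TMPRSS2 gave 0.04 to 0.23, none called. Its gene mean was -0.04, -0.07 and 0.01 in control arrays and 0.02, 0.07 and 0.12 in HS3ST2-labelled arrays, so the groups did not overlap, but by a margin of under 0.01. The difference was 0.10 ± 0.05 (interval -0.02 to 0.23). Of its 10 neighbours 2 were called higher and 2 lower. MX2, an interferon-induced gene, rose by 0.77 ± 0.09 (adjusted p = 5.43e-04) and RIPK4, a kinase gene, by 0.22 ± 0.07 (adjusted p = 0.0461). BACE2, an aspartic protease gene, fell by 0.25 ± 0.05 (adjusted p = 0.00656) and C2CD2 by 0.27 ± 0.06 (adjusted p = 0.0121). MX1, next to TMPRSS2, gave -0.01 ± 0.08 and did not pass (adjusted p = 0.964).

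The inhibitors of matriptase did not move with it. SPINT1 gave -0.01 and 0.03 in its 2 probe sets and 0.01 ± 0.06 as a gene (95% interval -0.13 to 0.15). Of its 10 neighbours 2 were called higher and none lower. CHAC1, a glutathione-degrading enzyme of the stress response, rose by 1.21 ± 0.07 (adjusted p = 2.61e-05) and VPS18, a subunit of a vesicle tethering complex, by 0.27 ± 0.06 (adjusted p = 0.0119). SPINT2 stood at -0.09, -0.28 and -0.07 in control arrays and at 0.18, 0.15 and 0.07 in HS3ST2-labelled arrays, without overlap. Its difference was 0.28 ± 0.07 (interval 0.11 to 0.44), or 1.21-fold. The call of its only probe set, 210715_s_at, was borderline. It was among those called over genes and not over probe sets, and it was lost over genes when control replicate 2 (0.21) or HS3ST2 replicate 1 (0.25) or 2 (0.27) was left out. Of its 10 neighbours, C19orf33 rose by 0.81 ± 0.10 (adjusted p = 6.73e-04) and KCNK6, a potassium channel gene, by 0.58 ± 0.10 (adjusted p = 0.0042), while PSMD8, a proteasome subunit gene, fell by 0.19 ± 0.05 (adjusted p = 0.0375). Over all 10 members, 14 of 92 different neighbours were called higher and 6 lower, that is 21.7%, close to the 24.5% of all genes.

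The order of the members by difference, from the highest, was TMPRSS3, WFDC10B, SPINT2, TMPRSS2, SPINT1, TMPRSS4, PRSS8, ST14, PI3 and SLPI. The 95% intervals of adjacent members overlapped from SPINT2 to PRSS8, between TMPRSS3 and WFDC10B and between PI3 and SLPI. They did not overlap between WFDC10B and SPINT2, between PRSS8 and ST14 or between ST14 and PI3. Different probe sets respond to RNA with different slopes, so these sizes are not levels.

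For the 3 members that differed by at least 1 log2, the genes most alike over the 6 arrays were found by the root mean square difference of the centred values. For TMPRSS3 these were FGG (0.128), TFF3 (0.134), ALPP (0.185), THBS2 (0.188) and CDH3 (0.201). For WFDC10B they were FGG (0.149), TFF3 (0.168), THBS2 (0.183), CDH3 (0.183) and MMP13 (0.205), so 4 of the 5 names recur. For SLPI they were AAMDC (0.0923), BIRC5 (0.11), CARD6 (0.111), PEAR1 (0.112) and ASB9 (0.115). With 2 groups of 3 arrays, this likeness mostly ranks genes by how near their group difference is to the member's.

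Other genes of the same families were counted from lists chosen by function, and the family relatives of TMPRSS3 did not move with it. Of 10 other type II transmembrane serine proteases measured, none was called by limma at an adjusted p under 0.05, 1 (TMPRSS15) had an unadjusted p under 0.05, and 1 was called without HS3ST2 replicate 2. Their differences ranged from -0.15 to 0.22, with HPN (hepsin) at 0.22 ± 0.11 (adjusted p = 0.173), TMPRSS15 (enteropeptidase) at -0.15 ± 0.06 (adjusted p = 0.106) and TMPRSS13 at 0.04 ± 0.06 (adjusted p = 0.723). The median of the list was 0.03 and that of all genes 0.01.

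Of 19 other membrane-anchored and secreted serine proteases, 2 rose, 1 fell and 16 did not pass (15.8% called, median 0.03). DPP4, a cell-surface dipeptidyl peptidase rather than a trypsin-like enzyme, rose by 1.30 ± 0.07 (adjusted p = 1.64e-05), and the secreted protease gene PRSS23 by 0.82 ± 0.06 (adjusted p = 6.09e-05). PRSS12, known as neurotrypsin, fell by 0.72 ± 0.08 (adjusted p = 3.90e-04). Of 14 kallikreins, secreted serine proteases, KLK3 rose by 0.23 ± 0.05 (adjusted p = 0.013) and KLK1 by 0.30 ± 0.08 (adjusted p = 0.0288), and 12 did not pass (14.3% called). Their calls were weak, since 1 kallikrein was called without control replicate 2 or 3 or without HS3ST2 replicate 1 or 2. With probe sets ending in _s_at or _x_at dropped, 9 kallikreins keep a probe set and none was called. KLK3 and KLK1 are not among these 9, so that setting does not test their calls.

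**Figure D4:**
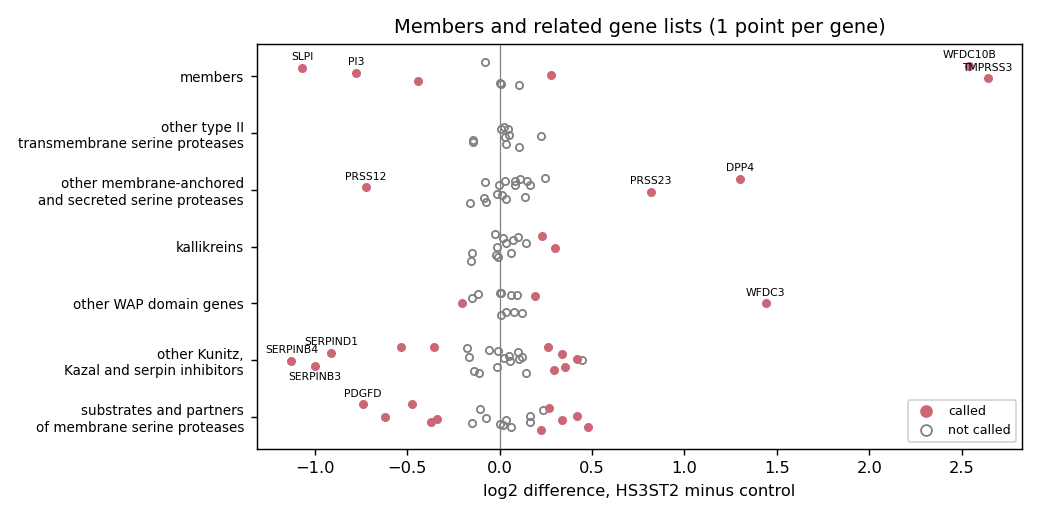
Log2 difference (HS3ST2 minus control) of each gene of the members and of the 6 related lists; filled red points are genes called at an adjusted p under 0.05, open grey points are not, the vertical scatter within a row is arbitrary, and genes past 0.7 in size are named. No point of the other type II transmembrane serine proteases is filled, and WFDC3 at 1.44 stands alone among the other WAP genes.

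Of 13 other WAP domain genes, 2 rose, 1 fell and 10 did not pass (23.1% called, median 0.03). Besides WFDC3 and WFDC9, WFDC8 rose by 0.19 ± 0.05 (adjusted p = 0.0314). The 3 probe sets of WFDC8 gave 0.05, 0.32 and 0.21, none called and each with overlapping groups. WFDC3 was the 1 gene of the list higher under the 11 of 15 alternatives in which WFDC8 was not called, each single left-out array and the replicate block included. WFDC2, an epithelial WAP protein used as a tumour marker, gave 0.00 ± 0.07 (adjusted p = 0.971).

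Inhibitors of other classes moved in both directions. Of 25 listed inhibitors besides SPINT1 and SPINT2, 5 rose, 5 fell and 15 did not pass (40% called, median 0.02). The list holds Kunitz, Kazal and serpin inhibitors and also A2M, which is none of these. A2M was among the 5 that rose (0.26 ± 0.08, adjusted p = 0.0452). The squamous serpins SERPINB4 and SERPINB3 fell by 1.13 ± 0.11 and 1.00 ± 0.08 log2 (adjusted p = 2.84e-04 and 1.18e-04). They are near-identical neighbours whose probes can share signal. SERPIND1, heparin cofactor II, fell by 0.91 ± 0.05 (adjusted p = 2.47e-05), SERPINB9, an inhibitor of granzyme B, by 0.53 ± 0.06 (adjusted p = 6.97e-04) and TFPI2, a Kunitz inhibitor, by 0.35 ± 0.06 (adjusted p = 0.0027). With shared probe sets (_s_at and _x_at) dropped, 4 of 22 rose and 3 fell. SERPINB3 and SERPINB4 keep no probe set there and were not tested again.

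Substrates and partners of the membrane proteases were also split. Of 20 measured, 5 rose, 5 fell and 10 did not pass (50% called, median 0.03). The receptor gene MST1R rose by 0.48 ± 0.06 (adjusted p = 7.79e-04). The desmosomal cadherins DSG2 and DSC2 fell by 0.62 ± 0.07 and 0.37 ± 0.06 (adjusted p = 5.42e-04 and 0.00224), the growth factor PDGFD by 0.74 ± 0.08 (adjusted p = 5.79e-04) and PLAU, urokinase, whose zymogen matriptase can cleave, by 0.47 ± 0.06 (adjusted p = 7.80e-04). HGF, whose precursor is another matriptase substrate, gave 0.00 ± 0.06 (adjusted p = 0.982). With shared probe sets dropped, 3 of 15 rose and 3 fell. PDGFD and PLAU keep no probe set there and were not tested again.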

How the data were processed

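Total RNA of 6 samples was labelled and hybridised to Affymetrix arrays. The submitters' processing notes name RMA, with no version. The deposited log2 values had a median of 0 over the 6 arrays for every probe set (within 4.8e-07), so each was centred by a step not given in the sources used here, and the 2 middle arrays of a probe set carry opposite values. The base of the logarithm was taken as 2. Levels are lost, so no filter on dim probe sets was possible, and precision is limited by the number of arrays.

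From 54675 probe sets, 62 control probe sets were left out. Of the 54613 tested, 41091 had 1 gene symbol in the platform annotation, 1801 several and 11721 none. Probe sets with 1 symbol were averaged per gene, with names updated by gene number (41037 matched), which gave 19775 genes. Groups were compared with limma 3.58.1 (lmFit, eBayes; R 4.3.3) without covariates, Benjamini-Hochberg adjusted over all genes or all probe sets. The script was tested on simulated data.

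The members and lists were chosen with earlier results of these data known. Named genes are all members, up to 5 called genes of each list with the smallest p, neighbours within 3 measured genes of a member that differed by at least 1 log2, the 5 genes most alike such a member, and HS3ST2. A few others (such as PDE9A, UBE2C, HPN, HGF, WFDC2 and the neighbours of TMPRSS2, SPINT1 and SPINT2) were named after their values were seen. Neighbours are the 5 measured genes on each side in the RefSeq table (GRCh38.p14), used for order only, since the files name no build. Promoter sequences are RefSeq's. Alternatives were a replicate block, each array left out, quantile normalization, median centring, array weights, shared probe sets (_x_at and _s_at) dropped, the probe set of largest SD per gene, robust eBayes, an adjusted p under 0.01 and the probe sets of lowest SD left out.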

Additional observations from a re-analysis of the deposited data

Results flagged for a closer look

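The ribosomal RNA control probe sets, which are outside the gene comparison, were higher in every HS3ST2-labelled array than in any control array. The control arrays averaged -0.18 ± 0.12 log2 (SD, n = 3) for the median of these probe sets, and the HS3ST2-labelled ones 0.307 ± 0.38. A two-sided exact permutation test gave p = 0.1, which is the least that 3 arrays against 3 can reach. Of the 5 other control measures computed, the middle probe sets of GAPDH and ACTB also split the groups without overlap, and were lower in HS3ST2-labelled arrays. GAPDH averaged 0.137 ± 0.013 in control and -0.163 ± 0.030 in HS3ST2-labelled arrays, and ACTB 0.135 ± 0.082 and -0.103 ± 0.050 (exact permutation p = 0.1 for each, n = 3 per group). The difference between the 3′ and 5′ probe sets did not split the groups for GAPDH (means -0.0073 and 0.017, exact permutation p = 0.3) or ACTB (-0.056 and 0.093, exact permutation p = 0.2), and neither did the Alu probe set (-0.0025 and -0.023, exact permutation p = 0.6). These p-values are not adjusted over the 6 measures.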

How the results depend on the processing

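Of 136 member values under the alternatives, 132 kept direction and call or stayed uncalled, and 4 lost the call, those of ST14 and SPINT2 described above. TMPRSS3 ranged from 2.28 (quantile normalization) to 3.38 (probe set of largest SD), WFDC10B from 2.25 to 2.67, SLPI from -1.18 to -0.99 and PI3 from -0.82 to -0.73. Members called were 2 to 3 in each direction.

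At an adjusted p under 0.01, 1285 genes were higher and 1555 lower, 2208 probe sets were higher and 2435 lower, 8 list genes were higher and 2 neighbours lower. With the shared probe sets (_x_at and _s_at) dropped, 1661 of 17098 genes were lower, 2591 of 39114 probe sets were higher and 2572 lower, 10 of 81 list genes were higher, and of 82 neighbours 9 were higher and 3 lower. Fewer probe sets were tested there. Over left-out arrays, 1729 to 1899 genes were higher and 2025 to 2162 lower.

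Same-numbered control and HS3ST2-labelled arrays did not all deviate together over probe sets (correlations 0.152, 0.0407 and -0.0826). Not every array correlated best with its own number. With 3 arrays per group these correlations cannot decide whether the numbers pair the arrays. With a replicate block, 1990 genes were higher and 2312 lower, and 3 members were higher and 3 lower.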
